A study of Mus musculus with 2 samples.

Results

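Sox10, Foxd3, Gap43, Cadm4, Srcin1, Mbp, S100b and Dct, 8 of the 19430 genes named in the tables, were grouped as genes of Schwann cells and melanocytes. Srcin1 is known mainly from neurons, and growing axons also make Gap43 and chondrocytes S100b. The 8 genes were selected on measured values of these same tables, namely a higher level in the Nf1-deficient than in the control callus, or a leading place in a cluster of spots. Their difference between the genotypes is therefore given as a description, with no test. All 8 were among the 16902 genes with a UMI (a unique molecular identifier, which marks 1 captured probe pair) in at least 0.3% of spots, so none was lost to that filter. Visium spatial transcriptomics was done on 2 sections, each with the callus of a control and of a mutant mouse, which were female and 8 weeks old. The design text has both calluses embedded together and sectioned, so the sections are treated here as cut from 1 control and 1 mutant callus, but the labels call them biological replicates, and whether they came from separate mice cannot be told from the sources used. The distal tibia had been fractured and pin stabilized 10 days earlier, and the bones were formalin fixed and decalcified. The control carried no Postn-cre and was Nf1 +/flox, with 1 floxed and 1 wild-type allele. The mutant (Nf1Postn) was Postn-cre;Nf1 flox/-, so that all of its cells lacked 1 Nf1 allele and cells in which the Postn promoter had driven Cre lost the other. Postn (periostin) Cre is used to delete genes in the periosteum, and Cre under a Postn promoter is also used for the Schwann cell lineage. No value separates genotype from mouse, place in the block or position of the leg.

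Schwann cells wrap peripheral axons. They arise from the neural crest under the transcription factors Sox10 and Foxd3, and when they myelinate they make large amounts of Mbp and other myelin proteins, while nonmyelinating and repair Schwann cells keep genes of immature cells active. Melanocytes share this origin, partly through Schwann cell precursors along nerves, and make pigment with the enzymes Tyr, Tyrp1 and Dct. Nf1 encodes neurofibromin, which restrains Ras signaling, and its loss in the Schwann lineage gives neurofibromas.

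Depth differed between the genotypes. The 1700 control and 1341 mutant spots of section 1 had a median of 7053 and 2030 UMIs, and the 1778 and 1556 spots of section 2 had 5718.5 and 3239.75. Levels are given as CPM, the UMIs of the gene over all UMIs of the spots in question, scaled to 1000000, with exact Poisson 95% intervals that cover counting error only. A spot of this array holds several cells, and fewer cells of a type cannot be told apart from less RNA per cell. The mutant tissue also differed in kind. The 12 listed muscle genes summed to 18385 and 29146 CPM in control sections 1 and 2 and to 81786 and 143684 in the mutant, and the 12 cartilage genes to 57934 and 37003 in control and 6668 and 11381 in the mutant. The 9 red cell and marrow genes summed to 350 and 391 CPM in the control and 2140 and 1731 in the mutant. Their part was not tested except where values without muscle-rich clusters of spots are given. Those are clusters with the listed muscle genes at 2 or more times their share of all UMIs. They take in cluster 8, led by the red cell genes Hbb-bt and Hbb-bs, so leaving them out does not remove muscle alone.

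In both sections 6 of the 8 genes were at least 2-fold higher in the Nf1Postn callus, as were 11.5% of all genes tested and 3.61% of the 6989 genes with a total number of UMIs in the range of the 8. The share was 28.8% among the genes with under 100 UMIs. The median over the 8 genes was a log2 ratio of 2.34 with both sections pooled, against 0.08 over all genes tested.

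Sox10 (chr15:79039108-79049441 in the mm39 coordinates of the tables) is the factor that Schwann cells and melanocytes need throughout life. It was at 3.83 CPM in control section 1, 8.00 in control section 2, 38.7 in mutant section 1 and 28.6 in mutant section 2. Foxd3 (chr4:99544536-99546860), a neural crest factor kept by Schwann cell precursors, was at 5.75 and 7.26 CPM in the control and 33.5 and 28.9 in the mutant. In both genes each mutant section lay above both control sections, and the pooled log2 ratios were 2.48 (95% interval 2.19 to 2.77) and 2.24 (1.96 to 2.53).

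Cadm4 (chr7:24181448-24203965), an adhesion molecule on the Schwann cell side of the contact with the axon, was at 5.24 and 7.84 CPM in the control and 45.6 and 29.2 in the mutant. Srcin1 (chr11:97400166-97467013), an adaptor that restrains Src kinase, is known mainly from neurons. It was at 3.61 and 4.12 CPM in the control and 34.1 and 18.2 in the mutant. Both were several fold higher in each mutant section than in either control section, with pooled log2 ratios of 2.45 (2.17 to 2.72) and 2.64 (2.29 to 3.00).

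Gap43 (chr16:42068805-42161015), a membrane protein of growing axons and of Schwann cells that have lost axon contact, differed less. It was at 12.9 and 11.6 CPM in the control and 33.2 and 21.1 in the mutant, a log2 ratio of 1.36 in section 1 and 0.86 in section 2. As CPM each mutant section lay above both control sections, but as UMIs per spot the pooled ratio turned to -0.13.

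Dct (chr14:118250202-118289657), dopachrome tautomerase of the melanin pathway, had the largest ratio of the 8. It was at 1.47 and 2.06 CPM in the control, from 20 and 25 UMIs, and at 30.6 and 32.9 CPM in the mutant, from 106 and 197 UMIs. Its ratio was 18.3-fold pooled, and it ranked the 10th in section 1 and the 8th in section 2 among the 16902 genes.

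Mbp (chr18:82493271-82603763), myelin basic protein, was at 28.9 and 37.9 CPM in the control and 92.4 and 160 in the mutant, with a pooled log2 ratio of 2.03 (1.90 to 2.15). Without the muscle-rich clusters that ratio was 1.18, with 0.90 and 1.29 by section, and outside the nerve spots defined below it was 1.41. S100b (chr10:76089687-76096994), a calcium-binding protein of Schwann cells that chondrocytes also make, was at 80.1 and 56.6 CPM in the control and 69.3 and 69.0 in the mutant. Its 2 mutant sections fell between the 2 control sections, and its pooled log2 ratio was 0.00 (-0.13 to 0.13).

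The scale matters because mutant spots were shallower. The median of all genes was 0.23 and -0.08 in sections 1 and 2 as CPM, -0.05 and -0.08 with TMM factors, and -1.40 and -0.90 as UMIs per spot. As UMIs per spot, Sox10, Cadm4, Srcin1 and Dct stayed at least 2-fold higher in both sections, at log2 ratios between 1.01 (Sox10 in section 2) and 3.17 (Dct in section 2). Foxd3 was at 0.91 and 1.17 and Mbp at 0.05 and 1.25 on that scale, and S100b was lower, at -1.84 and -0.54. With every spot thinned to 1000 UMIs and shallower spots left out, Dct was seen in 0.119% of control and 2.53% of mutant spots (1.24% and 5.45% unthinned), and Sox10 in 0.507% and 2.72% (3.85% and 8.35% unthinned). Foxd3 was seen in 1.10% and 2.26% (4.23% and 7.56% unthinned), and its log2 ratio of 2.24 became 1.03 in the thinned spots. That rested on section 1, at 2.46, while section 2 was at 0.18. Thinned Gap43 was at 1.07 pooled, with 1.88 and 0.35 by section. Cadm4 was at 1.92, Srcin1 at 2.25, Mbp at 1.89 and Sox10 at 2.51, each at least at 1.16 in both sections.

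**Figure D1:**
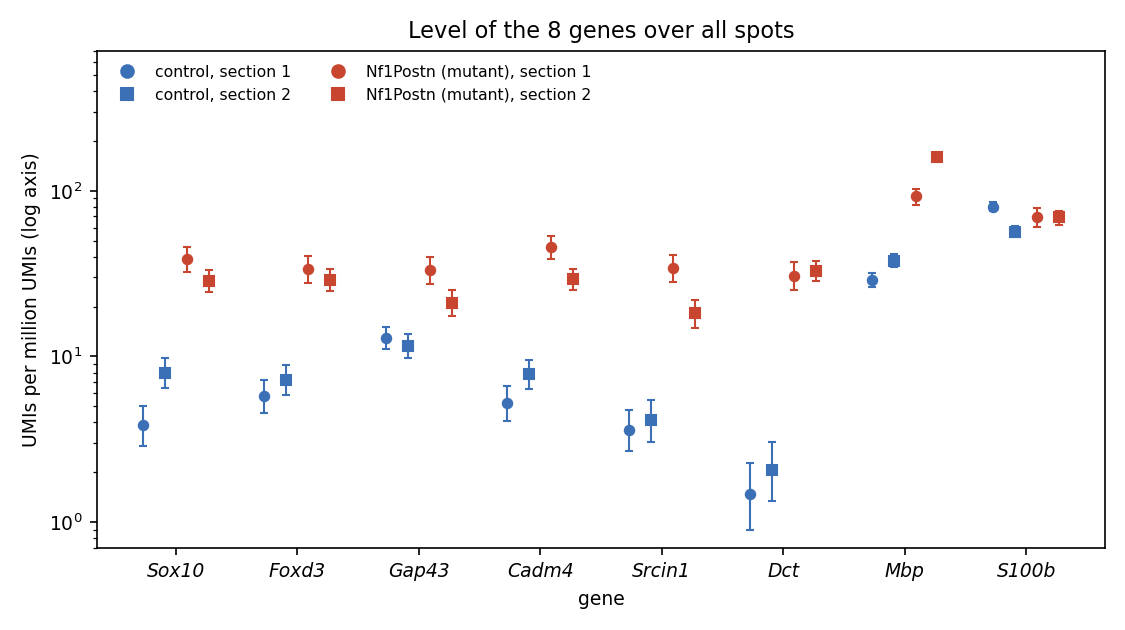
Level of the 8 genes over all spots of each section and genotype, in CPM on a log axis, with circles for section 1, squares for section 2 and exact Poisson 95% intervals for counting error. Both mutant values lie above both control values for every gene but S100b, whose mutant values of 69.3 and 69.0 lie between its control values of 80.1 and 56.6, while Gap43 turns to a log2 ratio of -0.13 as UMIs per spot.

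Other genes of the same cells were taken from written lists. Of 18 myelin genes 10, Mbp among them, were at least 2-fold higher in both sections, against 11.5% of all genes. None was 2-fold lower in both, and the median log2 ratio was 1.91 pooled, against 0.08 over all genes. The 10 included Cldn19 (2.48 and 2.72) and Pmp2 (3.22 and 2.63). Gjb1, Mag and Ugt8a, also counted, rested on 43, 76 and 82 UMIs, a class of genes in which 28.8% passed. Pmp22, the gene of the list with the most UMIs, stood at 0.28 and 0.38, and Ncmap, from 1446 UMIs, at -2.22 and 0.37. Of 14 tested regulators of the Schwann lineage and neural crest 6 were higher, against 11.5% of all genes, with medians of 2.04 and 0.70. Beside Sox10 and Foxd3 these were Erbb3, the neuregulin receptor of Schwann cells (2.66 and 1.41), Pou3f1 (2.57 and 1.73), Sox2 (2.51 and 1.80, from 46 UMIs) and Dhh (1.23 and 1.33). Erbb3 was at 4.35 and 7.59 CPM in the control and 27.4 and 20.2 in the mutant. Zeb2, Ets1 and Ednrb, which many other cells express, lay between -0.66 and 0.01.

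Of 17 genes of repair and nonmyelinating Schwann cells 2 were higher, Cadm4 and Cadm2, near the 11.5% of all genes, and the medians were 0.30 and 0.27. Jun and Apod, both induced in injured nerve and the 2 genes of that list with the most UMIs, were at 0.14 and 0.05 and at -0.15 and 0.30. Of 14 tested melanocyte genes 4 were higher, Dct, Sox10, Tyr and Tyrp1, with medians of 0.86 and 0.64, beside the 11.5% of all genes. The first 2 are among the 8 selected genes, and the last 2 rested on 43 and 31 UMIs in all, a class of genes in which 28.8% passed. Mitf, the master regulator of melanocytes that osteoclasts and mast cells also use, was at 0.49 and -0.22, and Kit at -0.02 and -0.39. The summed level of the whole list was 103 and 114 CPM in the control and 197 and 161 in the mutant. Without Dct and Sox10 it was 97.99 and 103 CPM in the control and 127 and 99.6 in the mutant, so that the direction differed between the sections. Oca2, a pigment gene of the list, was at 0 UMIs in all spots. Of 11 axon and neuron genes 4 were higher, with medians of 1.00 and 0.41, beside the 11.5% of all genes. They were Srcin1, which is among the 8 selected genes, Map2, and Nefl and Elavl4, from 23 and 49 UMIs. Only 209 genes (1.24%) of all tested were at least 2-fold lower in both sections, and none of the 8 was among them.

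Sox10, Foxd3, Gap43, Cadm4 and Srcin1, grouped here after their values were seen, shared many spots near the control tissue. In the mutant, 37 spots of section 1 and 46 of section 2 held a UMI of at least 3 of these 5 genes, against 4 and 14 in the control. The shares of spots with each gene gave 14.8 and 10.4 in the mutant and 2.48 and 3.70 in the control. These mutant spots were deeper than most, with medians of 4922.5 and 6129.5 UMIs. Of these mutant spots 19 of 37 (51.4%) and 28 of 46 (60.9%) lay within 0.5 mm of the control tissue, a strip that held 13.2% and 10.7% of the mutant spots. In control section 2, 6 of the 14 spots lay within 0.5 mm of the mutant, a strip that held 156 of its 1778 spots, and in section 1, 1 of 4, where the strip held 170 of 1700. Outside that strip on either side, the pooled log2 ratios of the 5 genes were 2.23, 1.97, 0.80, 2.20 and 2.19 in the order named, so that the mutant was higher away from the border as well, with Gap43 the least so, at 0.38 in section 2.

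Dct was concentrated in another place. Spots with 2 or more Dct UMIs numbered 15 and 27 in the mutant and 1 in each control section, and 12 of 15 and 23 of 27 lay within 1.5 mm of 1 corner of the array, at the end of the mutant tissue in both sections. That corner held 11.8% and 9.83% of the mutant spots and 66.0% and 69.5% of their Dct UMIs, at 188 and 317 CPM, against 8.96% and 10.5% of their Sox10 UMIs. It held no control spot, so no control tissue could be set beside it. In the rest of the mutant tissue Dct was at 11.6 and 10.8 CPM, and without the corner its pooled log2 ratio was 2.66 in place of 4.19. No spot with 2 or more Dct UMIs lay in the strip along the control tissue.

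**Figure D2:**
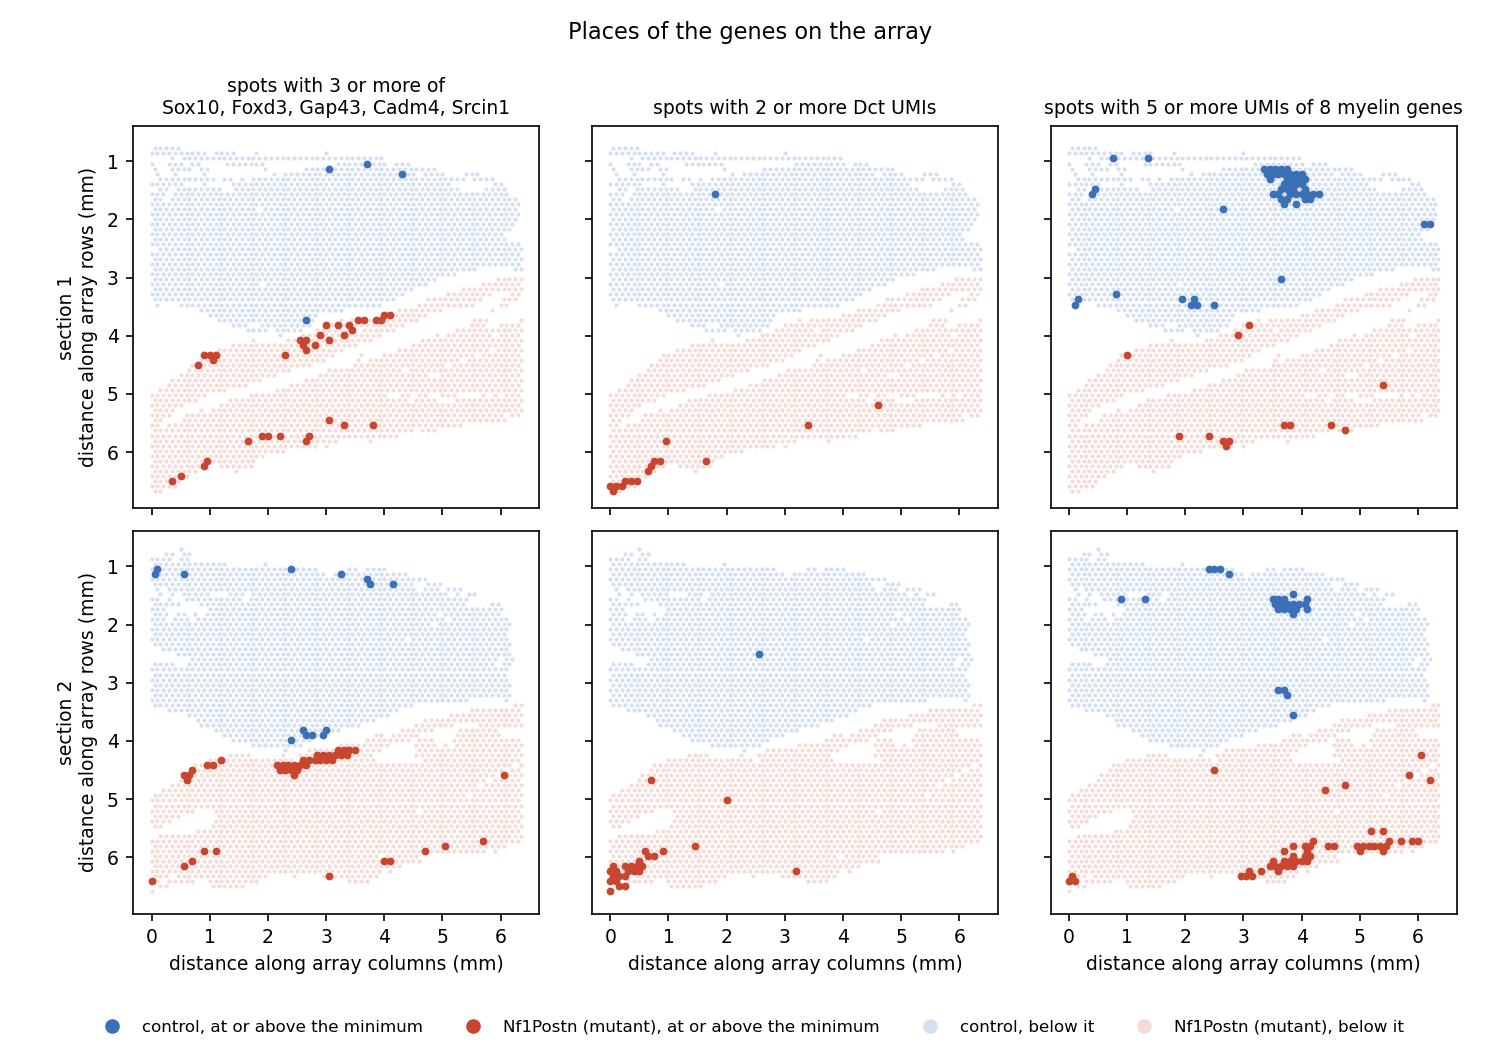
Spots of sections 1 (top) and 2 (bottom) at their place on the array in mm, control in blue and mutant in red, pale where below the minimum. The 37 and 46 mutant spots with at least 3 of the 5 genes (left) lie for 51.4% and 60.9% within 0.5 mm of the control tissue. The 15 and 27 spots with at least 2 Dct UMIs (middle) gather in 1 corner. Of the 13 and 51 mutant spots with at least 5 UMIs of 8 myelin genes (right), 2 and 1 lie within 0.5 mm of the control tissue and 0 and 3 near that corner. The panels overlap, with 5 and 7 of the mutant spots at left also at right.

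In the mutant, the 5 genes and Dct were highest in the same cluster of spots, which took in separate places of the tissue. In the control these genes did not share 1 highest cluster, with Gap43 highest in cluster 4, at 25.2 CPM, and Dct in cluster 3, at 6.23 CPM. All spots had been grouped into 14 clusters from genes other than the 8 and the listed genes, and cluster 7, led by Cadm4, Cxcl14, Cfd, Gap43 and Il33, was singled out after the member levels were seen. It held 135 and 94 control spots and 123 and 96 mutant spots. Of its mutant spots 68 of 123 and 48 of 96 lay within 0.5 mm of the control tissue, and of its control spots 30 of 135 and 14 of 94 within 0.5 mm of the mutant. Within 1.5 mm of the array corner, where no control spot lay, were 27 of the 123 and 27 of the 96 mutant spots. Spots with 2 or more Dct UMIs made up 9 and 14 of its mutant spots. Its mutant Dct level thus drew in part on tissue with no control beside it. Depth was closer here than over all spots, with medians of 5806 and 5663 UMIs in the control and 4414 and 4882 in the mutant, and the median log2 ratio of all genes was -0.01 and 0.03. The cluster held 11.0% of the UMIs of the mutant but 32.8% of its Sox10, 44.6% of its Foxd3, 47.3% of its Gap43, 36.0% of its Cadm4, 46.7% of its Srcin1 and 46.9% of its Dct UMIs. Of the control UMIs it held 5.08%, with 6.04% of Sox10, 6.02% of Foxd3, 7.91% of Gap43, 11.4% of Cadm4, 12.1% of Srcin1 and 8.89% of Dct. Sox10 and Foxd3 were lower in control cluster 7 than in control cluster 4, at 6.90 against 9.73 and 7.66 against 10.1 CPM. Cadm4 and Srcin1 were higher, at 14.6 against 9.91 and 9.20 against 5.04 CPM.

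Within cluster 7, Foxd3 was at 5.27 and 11.0 CPM in control sections 1 and 2 and at 88.7 and 164 in the mutant. Sox10 was at 7.91 and 5.49 in the control and 79.7 and 115 in the mutant, and Srcin1 at 10.5 and 7.32 against 92.4 and 113. These mutant levels were roughly an order of magnitude above the control levels. Cadm4 was at 14.5 and 14.6 CPM in the control and 132 and 96.4 in the mutant, and Gap43 at 11.9 and 29.3 against 99.6 and 121. Dct had 4 UMIs in control section 1 and none in control section 2, which allows up to 6.75 CPM, against 60 and 82 UMIs in the mutant, at 109 and 168 CPM.

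Of 7724 genes with at least 50 UMIs in cluster 7 over both genotypes, 42 (0.544%) were at least 2-fold higher in the mutant in both sections. Among them were 6 of the 8 genes, in places 1 to 5 and 7 by pooled ratio. Since the selection used the same spots, nothing is read from these places. Mbp and S100b did not share the pattern. In this cluster Mbp was at 87.0 and 91.5 CPM in the control and 47.1 and 158 in the mutant, lower in section 1 and higher in section 2, and S100b at 88.4 and 86.0 against 74.2 and 117. Muscle genes summed to 8325 and 21034 CPM in the control spots of the cluster and 14472 and 27218 in the mutant spots, a smaller gap than over all spots, and cartilage genes to 12648 and 10245 against 5202 and 4804. The adipocyte genes Cfd and Adipoq were at 351 and 105 CPM in the control and 29.0 and 23.5 in the mutant in section 1. In section 2 they were at 93.3 and 60.4 against 197 and 75.9, the other direction. The part of muscle, cartilage and fat in the member differences was not tested. Nerve spots, defined below by myelin genes, made up 3 and 1 of the control and 3 and 2 of the mutant spots of the cluster.

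**Figure D3:**
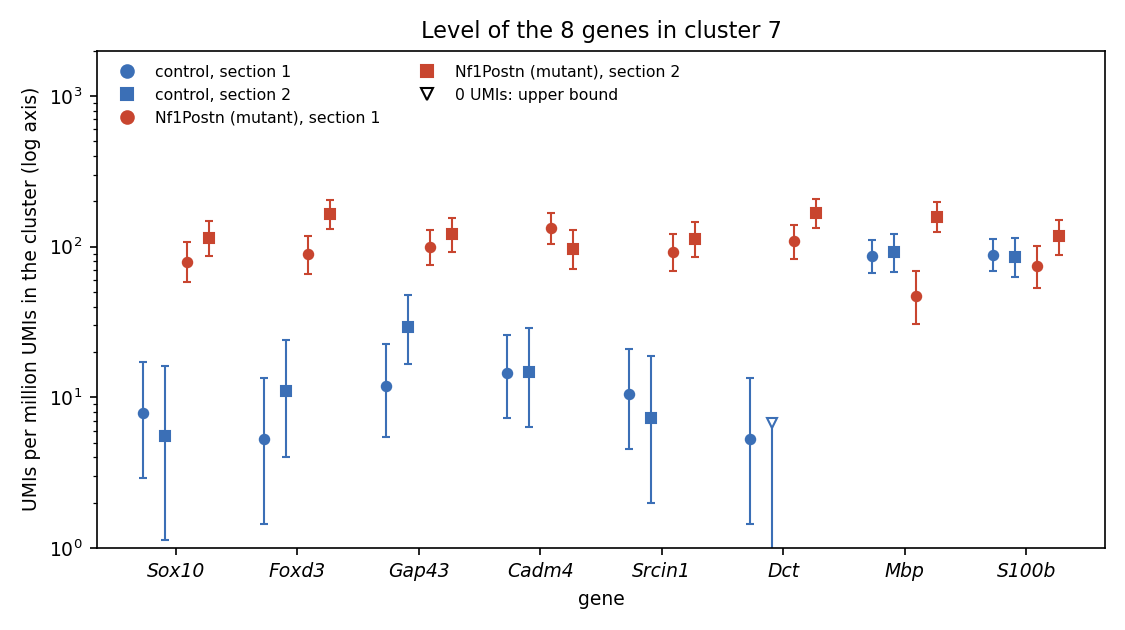
Level of the 8 genes in cluster 7, in CPM on a log axis, with exact Poisson 95% intervals. Sox10, Foxd3, Gap43, Cadm4, Srcin1 and Dct lie between 79.7 and 168 in the mutant sections (red) and at most at 29.3 in the control sections (blue), while Mbp and S100b of the genotypes overlap, and the open triangle is the upper bound of 6.75 where Dct had no UMI. Of the mutant spots of the cluster 27 of 123 and 27 of 96 lie near the array corner, where no control spot lies.

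Outside cluster 7 the pooled ratios were 11.4-fold for Dct, between 4.03- and 4.25-fold for Sox10, Cadm4 and Srcin1, 2.97-fold for Foxd3 and 1.27-fold for Gap43, each smaller than inside the cluster. By section the log2 ratios outside it were 3.11 and 1.37 for Sox10, 2.85 and 1.31 for Srcin1, 2.64 and 1.63 for Cadm4, 1.99 and 1.26 for Foxd3, 0.67 and 0.17 for Gap43 and 3.66 and 3.28 for Dct, higher in section 1 for each gene. Regions with at least 20 spots of each genotype were compared, cluster 7 included. Of the 69 member values with a ratio 61 (88.4%) were higher in the mutant with the sections pooled. By the same rule so were 51.8% of the values of all genes tested and 50.3% of those of genes in the UMI range of the 8. The selection of the genes used the same spots, so nothing is read from that gap. No ratio was set where both genotypes held at most 3 UMIs, or where 1 was at 0 and the bound pointed the other way. In cluster 2, Sox10, Gap43 and Srcin1 thus dropped out at 0 UMIs in 27 mutant spots against 26, 42 and 10 in 738 control spots. In cluster 9, Sox10 and Foxd3 dropped out at 0 against 6 and 7 control UMIs. In cluster 10, Gap43 and Dct dropped out at 14 and 9 mutant UMIs against 0 in the control. Among the regions with a ratio, Cadm4 was higher in 9 of 9, Dct and Gap43 in 8 of 8 each, Srcin1 in 8 of 8 and Sox10 in 7 of 7. Foxd3 and Mbp were higher in 8 of 9 and 8 of 10, and S100b in 5 of 10. Many of these values rest on few UMIs. Intervals lay above a ratio of 1 in 7 regions for Dct, in 5 for Sox10 and Cadm4, in 4 for Foxd3, Srcin1 and Mbp, in 2 for Gap43 and in 1 for S100b. No share of all genes by that rule is given here, so nothing is read from these counts. The sections did not always share the direction. In cluster 12, 5 genes that were higher with the sections pooled had log2 ratios below 0 in section 2, Cadm4 -1.18, Gap43 -1.32, Foxd3 -0.86, Sox10 -0.75 and Srcin1 -0.27. In cluster 4, led by Gpnmb, Ccl7 and Mmp3, Sox10 was at 9.73 CPM in the control and 47.8 in the mutant, with log2 ratios of 2.62 and 2.09 by section. Gap43 was at 25.2 and 54.8 CPM there, with log2 ratios of 0.02 and 1.83, so that its difference rested on section 2.

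Whether the genes shared spots was counted for the 28 pairs in the mutant, as spots with a UMI of both genes over the number given by the level of each gene and the depth of each spot. Over all 28 pairs the median ratio was 0.875. All 10 pairs among Sox10, Foxd3, Gap43, Cadm4 and Srcin1 were found together more often than that number, by 1.49- to 1.79-fold, and all 10 intervals lay above 1. By section the 10 ratios were 1.22 to 1.71 and 1.47 to 2.18. Foxd3 and Cadm4 shared 73 spots, 33.3% of the Foxd3 and 30.2% of the Cadm4 spots, against 40.9 from level and depth, a ratio of 1.79 (1.40 to 2.24). Sox10 and Cadm4 shared 70, 28.9% of the spots of each, against 43.1, a ratio of 1.62 (1.27 to 2.05). Sox10 shared 58 spots with Foxd3 against 38.0, a ratio of 1.53 (1.16 to 1.97). In the control, where each gene was sparse, 2 of these 10 pairs had intervals above 1, Sox10 with Foxd3 (2.13) and Sox10 with Srcin1 (2.31), and the difference between the genotypes was not tested.

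Dct was found with the other 7 genes less often than level and depth gave, at ratios of 0.33 to 0.60, and Mbp at 0.36 to 0.80. This measure counts UMIs that pile up in few spots as if they were spread out, and both genes pile up, with up to 17 Dct and 35 Mbp UMIs in a mutant spot. With the level set instead from the number of spots holding a UMI, an alternative added after the data were seen, the 7 ratios of Dct were 0.72 to 1.32 with every interval spanning 1, and those of Mbp 0.90 to 1.39, above 1 by their intervals for Cadm4 and Srcin1. The 10 pairs of the 5 genes were then at 2.14 to 2.70. With levels set within each cluster from UMIs the ratios of those 10 pairs were 0.88 to 1.25. With a UMI of the other gene counted in the spot or a touching spot, they were 0.885 to 1.02. With levels set within each cluster from the number of spots with a UMI, also added after the data were seen, they were 1.25 to 1.70, and 6 of the 10 intervals lay above 1.

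Counted per spot, 14 spots of mutant section 1 and 23 of section 2 held at least 4 of the 5 genes, against 2.27 and 0.835 from the shares of spots, and 12 and 18 of them lay in cluster 7. No control spot of section 1 and 2 of section 2 did. Of the 14 and 23 spots 2 and 2 were nerve spots, and of the 37 and 46 mutant spots with at least 3 of the 5 genes 5 and 7 were. Over all mutant spots 13 of 1341 and 51 of 1556 were nerve spots. Of the 37 and 46 mutant spots with at least 3 of the 5 genes, 1 and 3 held 2 or more Dct UMIs, as did 15 of all 1341 and 27 of all 1556 mutant spots.

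**Figure D4:**
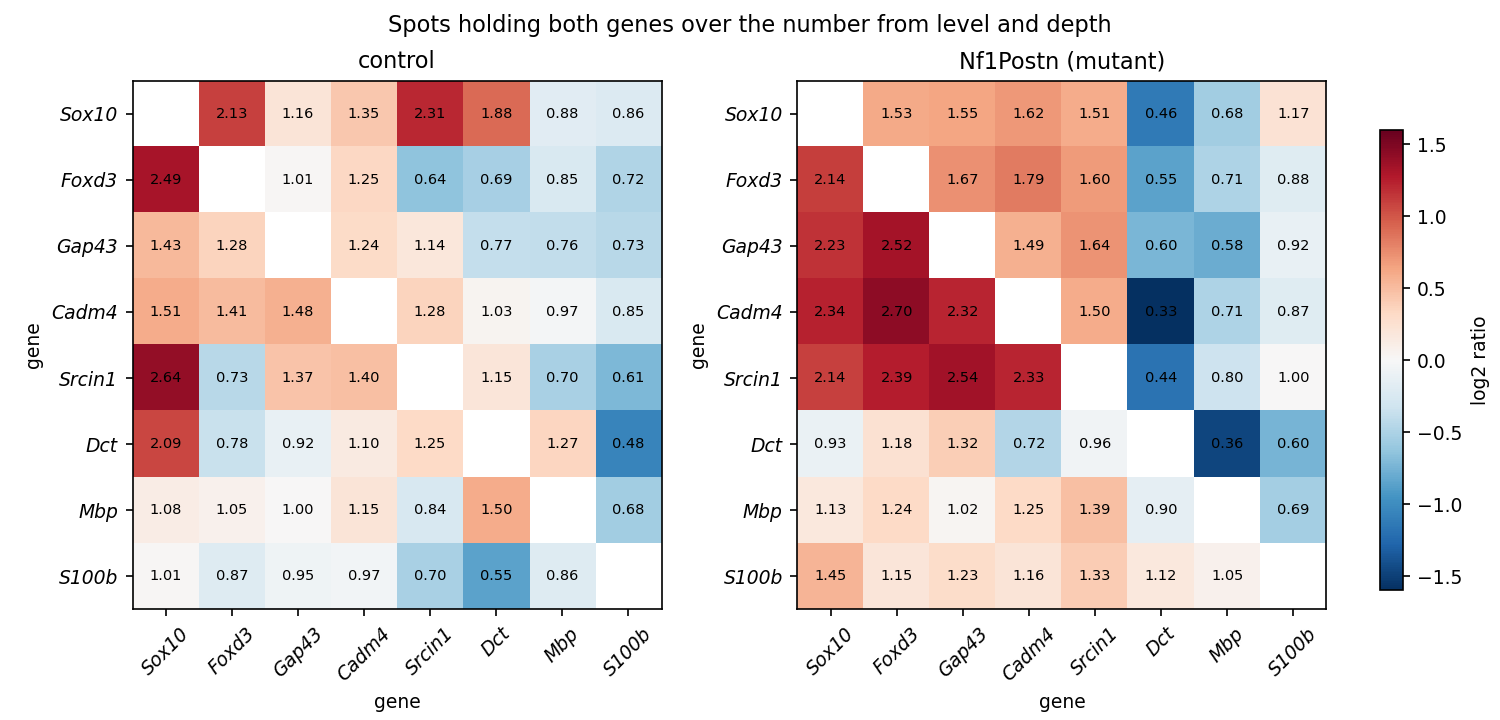
Spots holding both genes of a pair over the number expected from level and depth, both sections pooled, control at left and mutant at right, with levels from UMIs above the diagonal and from the number of spots with a UMI below it, and red for ratios above 1. In the mutant the 10 pairs of Sox10, Foxd3, Gap43, Cadm4 and Srcin1 stand at 1.49 to 1.79 above and 2.14 to 2.70 below the diagonal, and Dct pairs at 0.33 to 0.60 and 0.72 to 1.32.

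Spots shared with genes outside the 8 were counted in the mutant in the same way, with levels from the numbers of spots. The 5 genes were found with Lgi4, which Schwann cells secrete, at ratios of 2.01 to 2.71 and with Erbb3 at 1.87 to 2.34. Both genes were also higher in mutant cluster 7 than in the other mutant clusters, Lgi4 at 97.1 against 19.9 CPM and Erbb3 at 53.8 against 19.0. No ratio within clusters and no gene of another cell type is set beside these values, so they do not show a cell type.

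Mbp lay most in nerve spots of all 8 genes in the mutant. Nerve spots were set as spots with at least 5 UMIs over 8 myelin genes other than Mbp, and numbered 55 and 27 in the control and 13 and 51 in the mutant. The control nerve spots were deep, with medians of 17047.5 and 14380.5 UMIs against 4869 and 3727.5 in the mutant, so that the minimum of 5 UMIs stood for a lower level there. In mutant section 2 they held 47.2% of the Mbp UMIs (exact binomial 95% interval 44.0 to 50.4) from 3.59% of all UMIs, at 2102 CPM against 87.5 CPM in its other spots. In mutant section 1 they held 19.7% from 1.92% of all UMIs, and in the control sections 11.0% and 9.80% from 6.79% and 3.23%. With Ncmap and Prx left out of the 8 genes, 6 control nerve spots remained in each section, with Mbp at 1165 and 534 CPM. In the 9 and 37 mutant nerve spots by that rule Mbp was at 1260 and 2662 CPM, so that the levels of the genotypes lay close in section 1. Of the mutant Mbp UMIs 52.0% lay in cluster 1, led by the muscle genes Myh7 and Ckmt2, where Mbp was at 46.2 CPM in the control and 249 in the mutant. Cluster 1 itself held 114 control and 675 mutant spots, 603 of them in section 2, so that muscle moved with Mbp. Without the muscle-rich clusters, which take in the red cell cluster 8 as well, the log2 ratio of Mbp was 1.18 in place of 2.03.

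Nerve spots held smaller shares of the other genes, from 1.92% and 3.59% of all UMIs in mutant sections 1 and 2. Cadm4 was at 332 CPM in them and 40.0 outside in section 1, and at 182 and 23.6 in section 2. Foxd3 was at 136 and 31.5 in section 1 and 79.2 and 27.0 in section 2, and Sox10 at 45.2 and 38.6 and at 144 and 24.3. Of the other genes only Gap43 in section 2 and Dct in section 1 were lower in nerve spots than outside them. In mutant section 2 they had 22.3% of Cadm4, 19.6% of S100b, 19.3% of Dct, 18.1% of Sox10, 9.83% of Foxd3, 5.50% of Srcin1 and 2.38% of Gap43 UMIs. In mutant section 1 they had 13.9% of Cadm4, 12 of the 240 S100b UMIs, none of Dct, 2.24% of Sox10, 7.76% of Foxd3, 8.47% of Srcin1 and 3.48% of Gap43 UMIs. Cadm4 came after Mbp in both sections, and the order of the others changed between the sections. The Dct UMIs in nerve spots of section 2 numbered 38, and 3 of those spots held 2 or more. Many control nerve spots rested on 2 genes, since without Ncmap and Prx 6 and 6 control spots and 9 and 37 mutant spots remained. Outside nerve spots the median log2 ratio of the 8 genes was 2.18, and 6 of the 8 stayed at least 2-fold higher.

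Other pigment genes were counted in spots with and without Dct. In the mutant, Dct and Tyr, the first enzyme of melanin synthesis, shared 15 of the 28 spots with Tyr, 2.99 times the number from level and depth (1.67 to 4.93). Tyrp1, which acts after Dct, shared 7 of its 17 spots and Pmel, the fibril protein of pigment granules, 9 of its 25. Tyr, Tyrp1, Pmel and Mlana, a set chosen after their values were seen, together made up 7.70 and 4.16 CPM in mutant spots without Dct, 31.4 and 15.2 in spots with 1 Dct UMI and 192 and 186 in spots with 2 or more, sections 1 and 2 in turn. Both sections thus gave the same order, from 11 and 23 pigment UMIs in the 15 and 27 spots of the last class. Slc45a2 and Slc24a5 of the same melanocyte list, with 44 and 51 UMIs, are not in the set and are not given by Dct class here. Their log2 ratios in sections 1 and 2 were 0.16 and 1.02, and 0.75 and 0.88. The 43 control spots with Dct held 0 UMIs of the 4 genes, which at this depth allows up to 10.2 CPM. Of these spots 41 held 1 Dct UMI. The other 2, 1 in each section, allow up to 218 and 673 CPM, so they cannot be set against the mutant spots with 2 or more. Control spots without Dct were at 2.54 and 2.52 CPM.

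**Figure D5:**
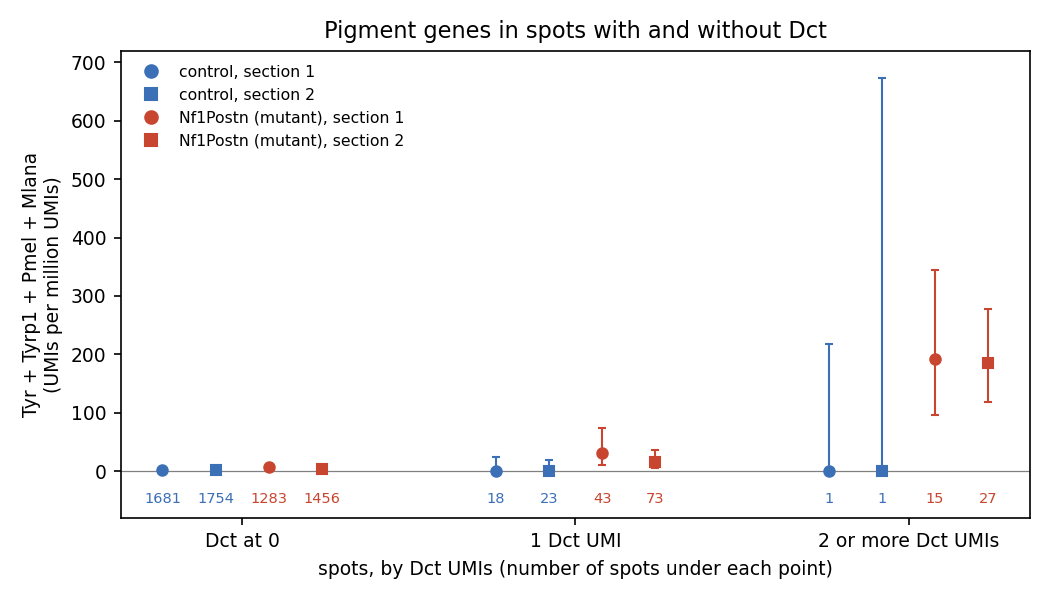
Summed level of Tyr, Tyrp1, Pmel and Mlana in spots with 0, 1 or at least 2 Dct UMIs, with exact Poisson 95% intervals and the number of spots under each point. In the mutant (red) the level goes from 7.70 and 4.16 without Dct to 192 and 186 with at least 2 Dct UMIs. Control spots with Dct (blue) hold no UMI of the 4 genes, but only 1 control spot per section holds at least 2 Dct UMIs.

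The surroundings of Dct differed between the sections. In mutant spots with 2 or more Dct UMIs, Cma1 and Mcpt4, proteases of mast cells, were at 437 and 245 CPM in section 1 and 80.7 and 40.3 in section 2, against 14.7 and 17.9 and 2.22 and 4.10 in the other mutant spots. The adipocyte genes Cfd and Adipoq were at 34.9 CPM each in those spots of section 1, from 2 UMIs each, and at 629 and 210 in section 2, against 22.0 and 10.9 and 20.1 and 7.34 in the other spots. A set of 9 epidermis genes (Krt5, Krt14, Krt1, Krt10, Krt15, Lor, Krtdap, Dsp and Perp, chosen after the Dct spots were seen) had 0 and 2 UMIs in the Dct spots. That is 0 and 16.1 CPM, with upper limits of 64.4 and 58.3, against 21.1 and 18.6 CPM elsewhere in the mutant. So few UMIs cannot show whether their level differed there. The part of mast cells and fat in the Dct result was not tested.

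Promoter sequence is shown because Dct, which Sox10 and Mitf are known to regulate, had the largest ratio of the 8 genes, and Foxd3 and Cadm4 were the pair found together most often. RefSeq promoters of GRCm38.p6, from 250 bases before to 50 after the start, were on hand for 4 of the 8 genes, and those of Dct, Foxd3 and Cadm4 follow on the coding strand. Capitals mark ACAAAG or its reverse complement CTTTGT, the core read by Sox factors, and CATGTG, its complement CACATG or CACGTG, cores read by Mitf, searched on both strands with no overlap found between them.
Dct promoter, chr14:118052197-118052496, minus strand: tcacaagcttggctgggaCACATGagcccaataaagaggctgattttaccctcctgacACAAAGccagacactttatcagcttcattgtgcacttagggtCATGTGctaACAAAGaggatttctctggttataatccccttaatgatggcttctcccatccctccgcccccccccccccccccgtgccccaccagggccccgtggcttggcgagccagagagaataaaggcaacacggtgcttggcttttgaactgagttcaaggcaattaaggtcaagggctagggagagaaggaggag
Foxd3 promoter, chr4:99656049-99656348, plus strand: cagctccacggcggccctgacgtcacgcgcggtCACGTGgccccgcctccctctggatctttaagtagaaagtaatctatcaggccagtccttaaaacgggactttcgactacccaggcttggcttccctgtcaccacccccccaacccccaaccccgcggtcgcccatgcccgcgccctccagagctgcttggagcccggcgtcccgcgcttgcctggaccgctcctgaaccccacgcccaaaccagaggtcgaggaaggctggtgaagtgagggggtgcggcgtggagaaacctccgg
Cadm4 promoter, chr7:24481773-24482072, plus strand: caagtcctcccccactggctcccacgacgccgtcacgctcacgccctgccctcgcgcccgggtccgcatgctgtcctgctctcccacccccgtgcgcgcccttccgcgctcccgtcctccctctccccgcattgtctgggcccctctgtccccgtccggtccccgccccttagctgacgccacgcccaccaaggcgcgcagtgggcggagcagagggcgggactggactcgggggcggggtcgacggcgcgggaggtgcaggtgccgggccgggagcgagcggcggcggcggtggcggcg
The Dct window held 4 matches, ACAAAG at positions -192 and -141, CATGTG at -150 and CACATG at -232, counted from the start. ACAAAG or its complement is in 18.7%, CATGTG or its complement in 14.2% and CACGTG in 7.15% of all 32851 such windows. Foxd3 held 1 match, CACGTG at -217, and Cadm4 and S100b held none of the motifs. The GC contents of Foxd3, Cadm4 and S100b were 65.7%, 77% and 53.7% against 53.3% for Dct. A match is a description of these letters, not a site.

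S100b lay in different tissue in the genotypes. In the control, 34.0% of its UMIs came from cluster 11, led by the cartilage genes Ucma, Scrg1 and Cnmd, at 125 CPM. Cluster 2, led by the osteoclast genes Acp5 and Siglec15, gave 19.5%, at 48.9 CPM, below the 69.0 CPM of all control spots. In the mutant, where clusters 11 and 2 had 11 and 27 spots, 27.4% came from muscle cluster 1. S100b was at 67.0 CPM there, near the 69.1 CPM of all mutant spots, so it was not concentrated in that cluster. The equal totals of 69.0 and 69.1 CPM thus joined unlike regions. In mutant section 2 S100b was at 377 CPM in nerve spots and 57.5 outside them.

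Across spots, the genes most like each member were ranked by the correlation of depth-corrected residuals among 10907 genes, over the 3045 spots of section 1 and 3335 of section 2. Spots of a section share tissue and depth, and the values are descriptions. Among the genes most like Mbp were Pmp22 (r = 0.35 and 0.70 in sections 1 and 2), Dusp15, Prx and Aatk. Sox10, Foxd3, Cadm4 and Srcin1 each had Aatk, a kinase gene of myelinating and nervous tissue, in the first or second place, at 0.18 and 0.29, 0.21 and 0.22, 0.36 and 0.30, and 0.22 and 0.14. Foxd3 with Cadm4 reached 0.26 and 0.28. Plekha4 was among the 5 genes most like Foxd3, Cadm4 and Srcin1.

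Gap43 was most like Col3a1 (0.20 and 0.19), then Gas7, Mfap5, Foxd3 and S100a6, of which Col3a1 and Mfap5 are genes of fibrous connective tissue. Among the genes most like Foxd3, Gap43 was in place 3, at 0.15 and 0.22. S100b was most like Ncmap (0.24 and 0.26), and then Col9a3 (0.30 and 0.11), Cnmd, Col9a2 and Acan of cartilage. The genes most like Dct differed between the sections. Cma1 reached 0.43 in section 1 and 0.13 in section 2, and Cfd 0.02 and 0.36, followed by Plin1, Scd1 and Mcpt4.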

How the data were processed

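The data were Visium spatial transcriptomes (probe pairs for fixed mouse tissue) of 2 sections, each with a control and an Nf1Postn callus. Labels name the sections as biological replicates, while the design text has both calluses embedded together and cut, and they were treated as sections of the same callus pair. Per the submitters' processing notes, Space Ranger 1.3.0 and mm39 were used, and tables were exported from Partek Flow. The authors deposited UMI values with no scaling, handled here like estimated counts, since a symbol shared by several Ensembl IDs carries their mean. The authors also deposited the genotype and array position of each spot, and how the border was drawn is not stated. All 6380 spots under tissue were used, apart from 5 without a genotype, and the entry with no gene name (5.24e-05% of UMIs) was left out. The sections share 2711 spot barcodes, since every Visium array carries the same barcode set.

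UMIs were pooled per section and genotype. Ratios carry exact conditional 95% intervals, levels exact Poisson and shares exact binomial intervals, all for counting error only. A ratio against a group at 0 was set against 3 counts and is a bound. No test compares the genotypes, since the genes were selected on that difference and the sections may share their mice. Clusters used log2(CPM + 1) centered per section, 20 principal components, 15 neighbors and Leiden resolution 0.5, without the 8 genes and the listed genes, and leading genes had at least 500 UMIs. The 8 genes, the lists and the rules were chosen with earlier results of these data known. Besides the 8, genes were named from the 3 of each list with the most UMIs and those past 2-fold with at least 50 UMIs, the 5 most like each member and the leading genes of clusters, and a few others after their values were seen. Some genes that this rule selects are not reported here. Functions were tested on simulated data. Python 3.11.15, numpy 2.4.6, scipy 1.17.1 and leidenalg 0.10.2 were used.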

Additional observations from a re-analysis of the deposited data

How the results depend on the processing

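The count of 6 of 8 genes at least 2-fold higher in both sections was 4 as UMIs per spot, 5 after thinning to 1000 UMIs, 7 at 1.5-fold and 0 as the mean over spots of log2(CPM + 1), a scale on which most spots are at 0. It was 6 under the other 8 settings. These were TMM factors, spots with at least 1000 UMIs, outside nerve spots (set both ways) and without muscle-rich clusters (listed muscle genes at 2 or more times their share of all UMIs). The rest left out the 5 top spots, the array corner or the strip between the genotypes. The last 2 and the nerve spots without Ncmap and Prx were chosen after seeing the data. Without muscle-rich clusters Gap43 was counted in place of Mbp. The median log2 ratio of 2.34 was 1.17 as UMIs per spot, 0.35 as mean log2(CPM + 1) and 3.01 without muscle-rich clusters, and 1.95 to 2.83 with 1 section left out. Gap43 turned from 1.05 to -0.13 as UMIs per spot and to -0.017 as mean log2(CPM + 1). Each of the other ratios kept its sign in all 13 alternatives, apart from S100b, which had no net difference. The median pair ratio of 0.875 was 1.77 after thinning, 1.28 with levels from spots with a UMI and 1.20 with those levels set per cluster. It was 0.760 with touching spots counted, 0.877 with levels set per cluster from UMIs, and 0.808 to 1.02 with 1 section left out. The share of the 8 genes' mutant UMIs in nerve spots, 21.8%, was 28.4% at a minimum of 3 UMIs, 17.1% at 10, 10.4% after thinning and 19.4% without Ncmap and Prx, and 9.41% to 28.7% with 1 section left out. The share of all genes at least 2-fold higher, 11.5%, was 4.07% over genes with at least 200 UMIs. Of member values by region at least 83.9% were higher under 3 other clusterings, against 88.4%. The cause of these shifts was not tested. No paired analysis was possible because the result comes from no test. Depth limits Dct in the control most, at 45 UMIs in all.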

Other observations

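In cluster 7, 36 genes other than the 8 were at least 2-fold higher in the mutant in both sections, among 7724 genes with at least 50 UMIs there. That minimum was counted over both genotypes, so genes sparse in the control could pass it through their mutant UMIs alone, which favors genes higher in the mutant. They were seen after the cluster had been singled out, and are given as values. Those of the Schwann cell lists included Erbb3 (pooled log2 ratio 2.96), L1cam, an adhesion molecule of nonmyelinating Schwann cells (2.47), the myelin gene Cnp (1.25) and Cadm1 (1.45). Genes known from neurons and glia but in no list were Sema4f (2.48), Adam23 (2.41), Aatk (2.33), the potassium channel Kcna6 (2.26), Lgi4 (1.63) and the collagen Col28a1 (2.45). The red cell genes Hbb-bs (1.51) and Hba-a2 (1.46), the cytokine Il33 (1.52) and the preadipocyte gene Dlk1 (1.51) were among them too. UMIs behind Erbb3 in the cluster numbered 6 and 3 in the control sections and 30 and 26 in the mutant sections, and those behind Aatk 34 and 22 against 113 and 111.

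The 5 spots without a genotype held 2 Mbp UMIs, 1 Cadm4 UMI and none of the other 6 genes.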
